A study of Mus musculus with 12 samples.

Results

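TEAD transcription factors, the cofactors that bind them and the Sox family factor Sox8 were followed in mouse fibroblasts that were driven towards skeletal muscle with MyoD. The genes were chosen by name: Tead1, Tead2, Tead3, Tead4, Vgll2, Vgll3, Vgll4, Yap1, Wwtr1 (the gene of TAZ) and Sox8. A probe was taken for a gene where the RefSeq accession given for it in the scanner files maps to that symbol. Of the 10 names, 9 had a probe, so that the set is 9 of the 17178 genes named on the array and 12 of its 41174 probes. No probe mapped to Vgll3. A probe entered the tests where 1 group or more had it well above background on each of its 3 arrays, and 8 of the 9 genes passed, among 12300 genes tested. Tead1 did not pass. Vgll2 and Sox8 passed only through the groups that received MyoD, so the 8 tested genes were not filtered independently of the comparison and do not stand for all 10.

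The samples were 12 single-colour Agilent arrays of C3H/10T1/2 cells, an established mouse mesenchymal line that can become muscle. A first stable line carried a short hairpin RNA against Six4 (shSix4) and a control line carried the hairpin shLuc. Each was infected with a retrovirus that delivers MyoD with Flag and myc tags (pBABE-MyoD) or with the empty pBABE vector, which gave 4 groups of 3 arrays. Every group therefore shared a hairpin, a retroviral infection and, from 24 h after infection, 24 h in medium with 2% horse serum. Whether each stable line was a clone or a pool, and whether the replicates were separate cultures, the sources used here do not say, so p-values cover only the spread among these arrays, which can be technical.

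TEAD proteins are DNA-binding factors that recognise the MCAT element of many muscle promoters and have little activity alone. They act through cofactors: YAP (Yap1) and TAZ (Wwtr1), which the kinases of the Hippo pathway hold in the cytoplasm, and the Vestigial-like proteins, which bind the same face of TEAD. Vgll2 is the Vestigial-like protein known from skeletal muscle, and Vgll4 is known to compete with YAP for TEAD. Sox8 belongs to the SoxE group with Sox9 and Sox10 and has been described in muscle precursor cells.

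RefSeq promoter windows of the build GRCm38.p6, from 250 bases before to 50 bases after an annotated start, were available for 8 of the 10 genes (11 windows) and were not used for Tead1 and Tead4. The parts before the start are printed for Sox8 and Vgll2, because both genes rose with MyoD, and for Yap1, because it did not pass the test and its window holds both kinds of motif. Capitals mark CANNTG, the general form of the E-box, and GGAATG, the core of MCAT. CANNTG covers sites of many factors, and a match does not single out MyoD. The Sox8 stretch lies at chr17:25570687-25570936 on the minus strand, that of Vgll2 at chr10:52022252-52022501 on the plus strand and that of Yap1 at chr9:8004597-8004846 on the minus strand.
Sox8: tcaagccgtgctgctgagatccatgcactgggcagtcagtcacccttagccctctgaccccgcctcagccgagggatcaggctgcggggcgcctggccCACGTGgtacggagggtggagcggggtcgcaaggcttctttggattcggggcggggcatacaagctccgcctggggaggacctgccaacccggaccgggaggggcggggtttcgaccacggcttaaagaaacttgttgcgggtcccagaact
Vgll2: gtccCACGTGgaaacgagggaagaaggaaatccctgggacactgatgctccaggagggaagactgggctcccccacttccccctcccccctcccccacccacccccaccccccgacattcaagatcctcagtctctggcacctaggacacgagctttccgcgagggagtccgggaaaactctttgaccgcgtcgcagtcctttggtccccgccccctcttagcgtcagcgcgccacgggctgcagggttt
Yap1: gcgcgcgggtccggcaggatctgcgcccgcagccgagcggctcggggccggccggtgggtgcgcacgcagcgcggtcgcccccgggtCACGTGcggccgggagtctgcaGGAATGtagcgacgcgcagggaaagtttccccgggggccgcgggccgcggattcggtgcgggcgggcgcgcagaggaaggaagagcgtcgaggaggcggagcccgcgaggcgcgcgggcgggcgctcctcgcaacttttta
In each stretch the E-box reads CACGTG, with its first base at position -152 from the start in Sox8, -246 in Vgll2 and -163 in Yap1. The MCAT core of Yap1 begins at -141. Over both strands of the whole windows, CANNTG was found in 4 of the 8 genes (Vgll2, Vgll4, Yap1 and Sox8) and in 72.3% of all 32851 windows of this length. GGAATG was found in 5 (Tead3, Vgll3, Vgll4, Yap1 and Wwtr1) and in 14.7% of all windows. A gene counts where any of its windows matches, while the shares are per window. Tead3 has 3 windows and Wwtr1 has 2, so counts and shares are in unlike units. The E-box form CAGCTG, which is also counted under CANNTG, was in none of the 8 genes and in 16.3% of all windows. The MEF3 motif TCAGGTT, which Six4 and its relatives recognise, was likewise in none of the 8 and in 4.07% of all windows. The GC content of the windows was 66.3% for Sox8, 65.3% for Vgll2 and 74.0% for Yap1, against a median of 52.7% over all windows. A match is a description of the letters in the window, and the arrays do not measure binding.

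**Figure D1:**
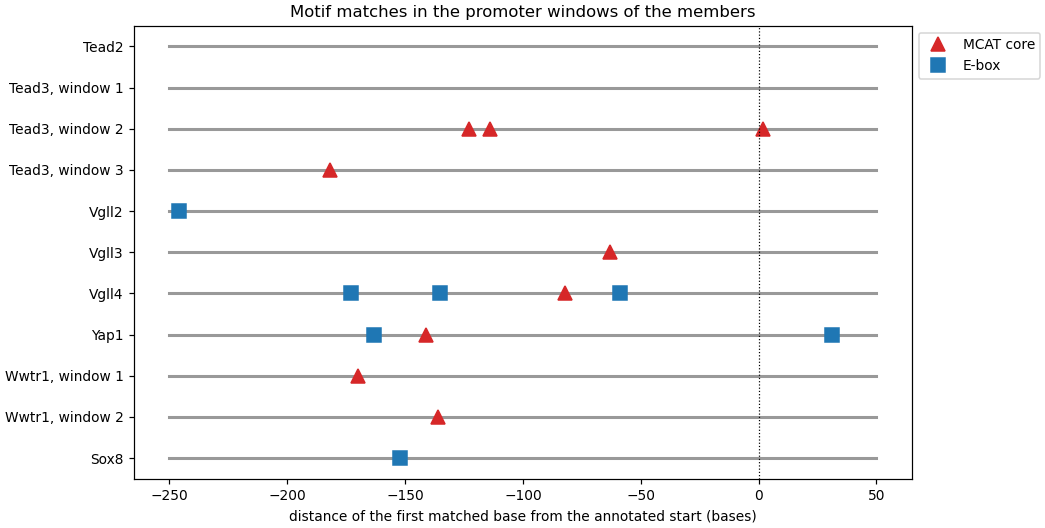
Position of each match to the MCAT core (triangles) and the E-box (squares) in the promoter windows of the 8 genes that have one. The horizontal axis is the distance in bases of the first matched base from the annotated start (dotted line), and each grey line is 1 window from 250 bases before to 50 after the start. Tead2 and the first Tead3 window hold neither motif.

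The labels were checked on the targeted genes. With either vector, Six4 read lower in the shSix4 line on all 3 slides, with log2 differences of -0.92 ± 0.49 (SE) with empty vector and -1.17 ± 0.49 with MyoD, and neither passed (limma adjusted p = 0.999 and 0.558). Within slides 1, 2 and 3 the differences were -1.48, -0.096 and -1.19 with empty vector and -1.59, -1.24 and -0.69 with MyoD. Slide 2 with empty vector thus showed almost no lowering of Six4. The MyoD difference passed once the replicate number entered as a block (adjusted p = 0.0424). The rise of Myod1 with MyoD was 4.03 ± 0.90 in shLuc cells (limma adjusted p = 0.0315), a call kept in 7 of 12 fits that left out 1 array. The difference in shSix4 cells, 2.10 ± 0.90, did not pass (adjusted p = 0.482). In each line 2 of 3 empty-vector arrays entered the fit, since all spots of the third were marked as outliers. In the shSix4 line 9 Myod1 spots were also marked on replicate 2 with either vector, and 6 on replicate 3 with MyoD. Of the 8 skeletal muscle markers, all 8 were well above background on every array of both MyoD groups and 3 of 8 (Acta1, Tnnt1 and Mymk) on every array of both empty-vector groups. All 9 fibroblast markers were above background on every array. Markers of other mesenchymal lineages were so too. These were 4 of 5 for chondrocytes (Col2a1, Acan, Sox9 and Comp) and 3 of 5 for smooth muscle (Acta2, Cnn1 and Tagln). For osteoblasts they were 3 of 5 (Runx2, Sp7 and Bglap) and for adipocytes 2 of 5 (Pparg and Fabp4). The endothelial genes Pecam1 and Kdr and the leukocyte gene Ptprc were well above background on no array. The endothelial gene Tek was so on all 3 arrays of every group but shSix4 cells with MyoD. Cdh5 was so on no array outside shSix4 cells with MyoD, and Itgam on none outside shLuc cells with MyoD. The other leukocyte marker with a probe was so on some arrays of every group, but never on all 3. A replicate number is also a slide, every slide holds all 4 groups, and slide 1 was scanned in another session than slides 2 and 3. Each group sat at the same array position on every slide, so position and group cannot be told apart.

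MyoD raised Tead4, Vgll2 and Sox8 in shLuc cells, and the other 5 tested genes did not pass the test. That is 3 of 8 called higher and 0 lower, at an adjusted p under 0.05 from limma, adjusted by Benjamini-Hochberg over all 12300 genes. Vgll2 and Sox8 entered the 8 only through groups with MyoD, so the counts of calls with MyoD are not independent of the filter. Among all genes 6.28% were called, 4.72% higher and 1.56% lower. In shSix4 cells 2 of 8 were called, Vgll2 and Sox8, both higher, where 2.89% of all genes were called and 2.79% were called higher. Tead4 joined them with the replicate block, which made 3 of 8, where 5.70% of all genes were called higher. The median log2 difference of the 8 genes was 0.033 in shLuc and 0.19 in shSix4 cells, beside -0.14 and -0.058 over all genes tested.

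Between the hairpins, none of the 8 genes was called. With empty vector 0 of 8 passed, where 0.0569% of all genes did, and with MyoD 0 of 8 passed, where 0.228% did. These shares are 7 and 28 genes, and in the 12 fits that left out 1 array they ran from 1 to 9 and from 1 to 45 genes. With MyoD the count was 1 without any single shLuc array with MyoD or without shSix4 replicate 2 with MyoD. At an unadjusted p under 0.05 limma gave 0 of 8 with empty vector, where 4.45% of all genes passed, and 1 of 8, Tead4, with MyoD, where 7.80% did. With the replicate block 0 of 8 passed in both, while the share of all genes called was 0.642% and 4.33%. The test of whether the MyoD response differed between the lines (the interaction) called 0% of all genes and none of the 8. At an unadjusted p under 0.05 it gave 2.02% of all genes and 1 of the 8, Tead4. The comparisons share their groups, so their values are given side by side and not correlated.

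**Figure D2:**
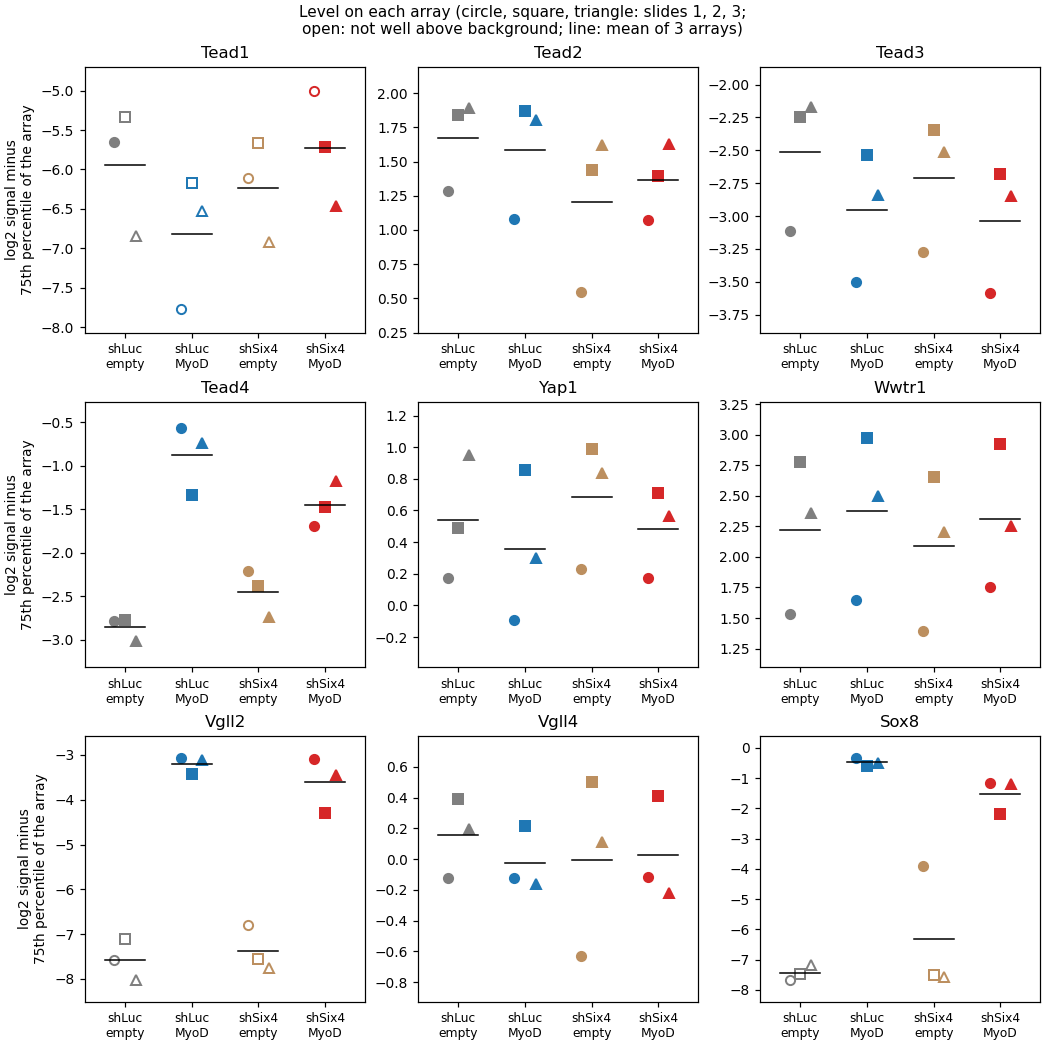
Level of each of the 9 genes with a probe on each of the 12 arrays, as log2 signal minus the 75th percentile of the array, by group (grey, shLuc with empty vector; blue, shLuc with MyoD; brown, shSix4 with empty vector; red, shSix4 with MyoD). Circles, squares and triangles are slides 1, 2 and 3, open symbols are not well above background, lines are means of 3 arrays, and the vertical scale differs between panels. Tead4, Vgll2 and Sox8 stand higher in both MyoD groups than in either empty-vector group, with no overlap.

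Among the TEAD factors, Tead4, the family member known as a target of MyoD and myogenin in muscle cells, was the one called. Levels here are log2 signal minus the 75th percentile of the array, which compares arrays for a probe but not probes with each other. Tead4 was at -2.78, -2.77 and -3.02 in shLuc cells given empty vector and at -0.57, -1.34 and -0.74 in shLuc cells with MyoD (replicates 1, 2 and 3). The shSix4 line gave -2.22, -2.38 and -2.74 with empty vector and -1.69, -1.48 and -1.18 with MyoD. Every array with MyoD was above every array without it, in each line and across the lines. The highest group mean was in shLuc cells with MyoD, whose values overlap those of shSix4 cells with MyoD, and the lowest was in shLuc cells with empty vector, which lay just under shSix4 cells with empty vector without overlap.

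Tead4 rose 3.93-fold with MyoD in shLuc cells, a log2 difference of 1.97 ± 0.24 (SE; 95% confidence interval 1.45 to 2.50; limma adjusted p = 0.000343). Within slides 1, 2 and 3 the difference was 2.22, 1.43 and 2.27. In shSix4 cells the difference was 1.00 ± 0.24, or 2.00-fold (interval 0.47 to 1.53), with 0.52, 0.91 and 1.57 within slides, and it narrowly missed the threshold (adjusted p = 0.0539). It passed with the replicate block (adjusted p = 0.0263) and in 4 of 24 alternatives in all, over which the adjusted p ran from 0.0263 to 1.00. Groups that do not overlap, with MyoD higher, were found for 3 of 8 genes in each line, the same 3 genes in both. The share of all genes was 10.2% in shLuc and 7.15% in shSix4 cells. Of the 3 genes, Vgll2 and Sox8 had passed the filter only through groups with MyoD. In a bulk sample, fewer cells that express a gene and less of its RNA per cell cannot be told apart.

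Between the hairpins Tead4 read higher in shSix4 cells without MyoD and lower in shSix4 cells with it, and neither difference passed over all genes. With empty vector it read higher in shSix4 than in shLuc cells on all 3 slides, by 0.57, 0.39 and 0.27, a mean difference of 0.41 ± 0.24 (interval -0.12 to 0.94; limma adjusted p = 0.999). Its groups do not overlap there, with shSix4 higher, as held for 3.30% of all genes. With MyoD it read lower in shSix4 cells on all 3 slides, with differences of -1.12, -0.13 and -0.43, a mean of -0.56 ± 0.24 (interval -1.09 to -0.036; adjusted p = 0.578). The test of the MyoD response itself, shSix4 against shLuc cells, gave -0.97 ± 0.34 (interval -1.72 to -0.23), which did not pass over all genes (adjusted p = 1.00, and 0.615 with the block).

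The other TEAD factors did not pass in any of the 5 comparisons without the block. Tead2, which is best known from embryonic tissue, was at 1.28, 1.84 and 1.89 in shLuc cells given empty vector and at 1.08, 1.87 and 1.80 with MyoD. The levels in shSix4 cells were 0.55, 1.44 and 1.62 with empty vector and 1.07, 1.40 and 1.63 with MyoD. It overlapped between all groups, and read lower in shSix4 cells on all 3 slides with either vector. That difference was -0.47 ± 0.33 with empty vector (adjusted p = 0.999) and -0.22 ± 0.33 with MyoD (adjusted p = 0.999). With the block the intervals were -0.78 to -0.16 with empty vector and -0.53 to 0.091 with MyoD. Neither passed over all genes there (limma adjusted p = 0.176 and 0.412). A dimmer Tead2 probe gave -0.34 ± 0.22 and -0.33 ± 0.22 for the same comparisons, also lower on all 3 slides.

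Tead3, a further TEAD factor that binds the same element, was at -3.11, -2.25 and -2.17 in shLuc cells given empty vector and at -3.50, -2.53 and -2.84 with MyoD. In shSix4 cells it was at -3.28, -2.35 and -2.51 with empty vector and at -3.59, -2.68 and -2.85 with MyoD. The groups overlap, yet within every slide MyoD read lower than empty vector, with differences of -0.38, -0.28 and -0.67 in the shLuc line and of -0.31, -0.33 and -0.33 in the shSix4 line. Without the block the difference in shLuc cells was -0.45 ± 0.37 (adjusted p = 0.585). With the block it passed (adjusted p = 0.0185, standard error 0.11), as the only one of the 8 genes called lower, where 15.7% of all genes were called lower. In shSix4 cells it was -0.33 ± 0.37 and did not pass with the block either (adjusted p = 0.110).

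Tead1 was measured by 1 dim probe. It was well above background on 1 of 3 arrays of shLuc cells with empty vector and on 2 of 3 of shSix4 cells with MyoD, and on none of the other groups. Its levels were -5.65, -5.33 and -6.85 in shLuc cells given empty vector and -7.77, -6.17 and -6.52 with MyoD. In shSix4 cells they were -6.11, -5.66 and -6.93 with empty vector and -5.00, -5.72 and -6.46 with MyoD. At this signal over background a difference in Tead1 was not detectable, and no fold is given.

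The spread of Tead3 and Wwtr1 lay mostly between slides. Over the 4 groups, the mean level of Tead3 was -3.37, -2.45 and -2.59 on slides 1, 2 and 3, and the SD of the residuals was 0.50 without the slide and 0.084 with it. For the brighter Wwtr1 probe the slide means were 1.58, 2.83 and 2.33 and the residual SD went from 0.63 to 0.086. The dimmer Wwtr1 probe had slide means of 1.19, 0.68 and 0.44, the opposite order for slide 1, with a residual SD of 0.43 without and 0.24 with the slide. What differs between the slides beyond the scan session of slide 1 was not stated in the labels or headers used.

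**Figure D3:**
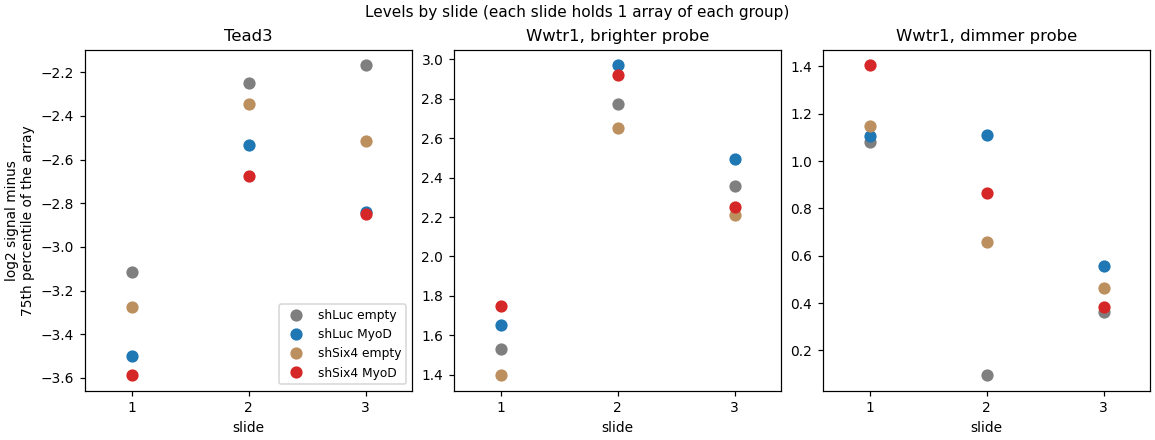
Levels of Tead3 and of the 2 Wwtr1 probes by slide (horizontal axis), as log2 signal minus the 75th percentile of the array, 1 point per array and 1 colour per group. Slide 1 is lowest for Tead3 and the brighter Wwtr1 probe and highest by mean for the dimmer one (1.19 on slide 1), and within each slide both MyoD arrays of Tead3 lie below both empty-vector arrays.

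The Hippo-controlled cofactors YAP and TAZ showed no called change in their mRNA. Yap1 was at 0.18, 0.49 and 0.95 in shLuc cells given empty vector and at -0.09, 0.85 and 0.30 with MyoD. The shSix4 line gave 0.23, 0.99 and 0.84 with empty vector and 0.17, 0.71 and 0.57 with MyoD. All groups overlap. The difference with MyoD was -0.18 ± 0.31 in shLuc cells (interval -0.86 to 0.49) and -0.20 ± 0.31 in shSix4 cells (interval -0.87 to 0.47).

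Wwtr1, which encodes TAZ, was at 1.53, 2.77 and 2.36 in shLuc cells given empty vector and at 1.65, 2.97 and 2.50 with MyoD by its brighter probe. The levels in shSix4 cells were 1.40, 2.65 and 2.21 with empty vector and 1.75, 2.92 and 2.25 with MyoD. The groups overlap, and MyoD read higher within all 3 slides of both lines, by 0.12, 0.20 and 0.14 in the shLuc line and 0.35, 0.27 and 0.043 in the shSix4 line. These differences were 0.15 ± 0.46 (interval -0.87 to 1.17) and 0.22 ± 0.46 (interval -0.80 to 1.24), and neither passed with or without the block. The dimmer probe gave 0.41 ± 0.34 and 0.13 ± 0.34. With the block the intervals of the brighter probe narrowed to -0.098 to 0.40 and -0.028 to 0.47, both short of a 2-fold rise.

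Among the Vestigial-like cofactors, Vgll2 went from background to a measured level with MyoD in both lines. It was at -7.58, -7.11 and -8.02 in shLuc cells with empty vector, well above background on none of these arrays, and at -3.08, -3.43 and -3.11 with MyoD. In shSix4 cells it was at -6.79, -7.56 and -7.75 with empty vector, again on none, and at -3.09, -4.29 and -3.44 with MyoD. All 6 arrays with MyoD were well above background, and the groups with and without MyoD do not overlap. Vgll2 was at least 6.73-fold higher with MyoD in shLuc cells (log2 difference as measured 4.37 ± 0.35, adjusted p = 1.34e-05) and at least 3.43-fold higher in shSix4 cells (3.76 ± 0.35, adjusted p = 7.37e-05). For such a bound each array of the dim group is given the signal of the dimmest probe that is still well above background there, or the probe's own signal if higher, and the brighter group's mean is set against the mean of these. That signal is not a strict detection limit. On shLuc replicate 2 with empty vector it was -5.59, and Tead1 at -5.33 was not well above background there. Every fold given as "at least" is therefore an approximate bound.

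With MyoD, Vgll2 did not differ detectably between the lines. There shSix4 cells read lower than shLuc cells on all 3 slides, with differences of -0.018, -0.86 and -0.33, a mean difference of -0.40 ± 0.35 (interval -1.18 to 0.38; adjusted p = 0.999). Since both empty-vector groups were at background, the sizes of the 2 responses, and so the difference between them, were not measured. With normexp background correction, which adds an offset and pulls low signals together, the measured difference in shLuc cells was 0.65 with all spots (adjusted p = 1.00) and 0.84 without 22 spots far below their local background (adjusted p = 0.0814), so that the call was lost in both. Without those spots the shSix4 difference was still called (adjusted p = 0.0382).

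Vgll4 showed no called change. It was at -0.12, 0.39 and 0.20 in shLuc cells given empty vector and at -0.12, 0.21 and -0.16 with MyoD. The shSix4 line gave -0.63, 0.50 and 0.11 with empty vector and -0.11, 0.41 and -0.22 with MyoD. The groups overlap throughout, and the difference with MyoD was -0.18 ± 0.29 in shLuc cells (interval -0.82 to 0.46) and 0.032 ± 0.29 in shSix4 cells (interval -0.61 to 0.67). In shLuc cells the 5 genes that did not pass (Tead2, Tead3, Vgll4, Yap1 and Wwtr1) lay between -0.45 and 0.15 with adjusted p of 0.585 or more.

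Sox8 rose with MyoD in both lines by both of its probes. By its brighter probe it was at -7.66, -7.48 and -7.18 in shLuc cells with empty vector, above background on none, and at -0.35, -0.60 and -0.49 with MyoD. The levels in shSix4 cells were -3.90, -7.51 and -7.56 with empty vector and -1.17, -2.19 and -1.21 with MyoD. Replicate 1 of shSix4 cells with empty vector stands apart from its group and was the only empty-vector array on which this probe was well above background. The groups with and without MyoD do not overlap in either line.

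In shLuc cells Sox8 rose at least 44.5-fold (as measured 6.96 ± 0.78, with an SE pooled over all 4 groups, adjusted p = 0.000187). In shSix4 cells it rose by 4.81 ± 0.78 (interval 3.08 to 6.53; adjusted p = 0.00474), and within slides by 2.74, 5.33 and 6.35, where slide 1 holds the array that stands apart. The other 2 arrays of that group were at background, and with these at the bound the rise was at least 11.7-fold. Without the array that stands apart the group was at background throughout, and the rise was at least 17.4-fold (adjusted p = 1.31e-06). With only the shSix4 groups in the fit it was not called (adjusted p = 0.102).

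The dimmer Sox8 probe does not show the high empty-vector array. It was at -7.08, -7.89 and -6.49 in shSix4 cells with empty vector and at -8.08, -6.57 and -8.40 in shLuc cells with empty vector, well above background on none of the 6. With MyoD it was at -2.65, -2.98 and -2.87 in shLuc and at -2.74, -3.58 and -3.91 in shSix4 cells, well above background on all 6. The rise was at least 8.70-fold in shLuc cells (adjusted p = 0.000123 with every probe tested on its own, where 4.39% of 24000 probes were called). It was at least 3.93-fold in shSix4 cells (adjusted p = 0.00142, where 2.17% of probes were called).

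With MyoD, Sox8 read lower in the shSix4 line on all 3 slides, with differences of -0.82, -1.59 and -0.72 by the brighter probe. The groups do not overlap, with shSix4 lower, as held for 6.05% of all genes. The mean difference was -1.04 ± 0.78 (interval -2.76 to 0.68; adjusted p = 0.964), so the interval spans both no difference and a several-fold one. This SE pools the spread of all 4 groups. The SD was 0.13 in shLuc and 0.58 in shSix4 cells with MyoD, but 2.10 in shSix4 cells with empty vector. That last group holds the array that stands apart and is outside this comparison, yet it widens the interval. The dimmer probe gave -0.58 ± 0.50, with overlapping groups. The interaction did not pass (adjusted p = 1.00), and it has no measured size, as 5 of the 6 empty-vector arrays were at background.

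**Figure D4:**
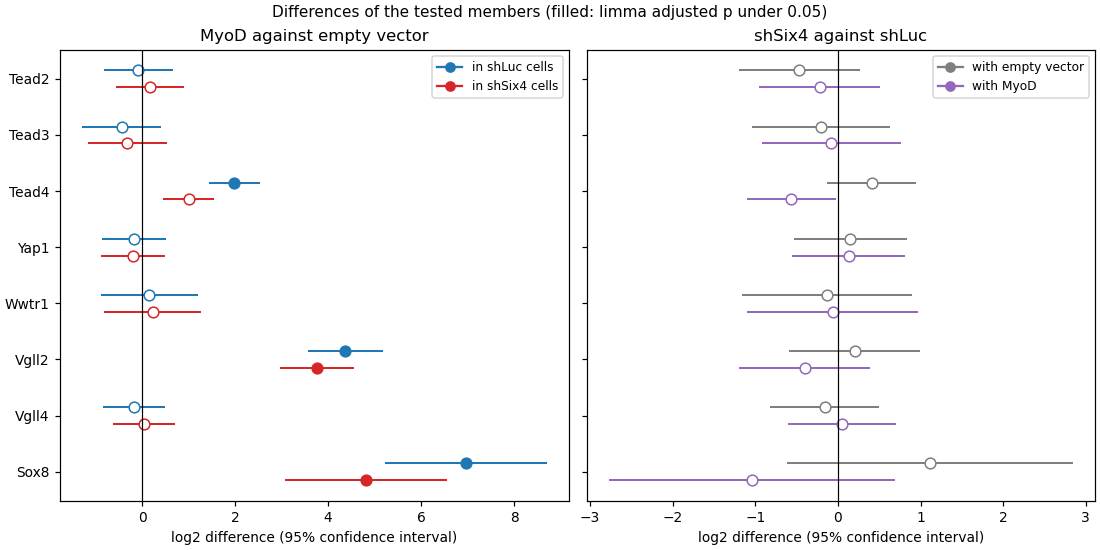
Log2 differences of the 8 tested genes with their 95% confidence intervals (horizontal axis), for MyoD against empty vector in each line (left) and shSix4 against shLuc with each vector (right). Filled points have a limma adjusted p under 0.05. Tead4, Vgll2 and Sox8 lie to the right of 0 in both lines on the left, Tead4 in shSix4 cells as an open point (1.00), and no point on the right is filled. Vgll2 with empty vector in both lines, and Sox8 on 5 of 6 empty-vector arrays, were at background, so their points that use these arrays are measured values without a measured base.

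Skeletal muscle marker level moved with the same groups as Tead4, Vgll2 and Sox8. Marker level here is the log2 of the summed linear signals of the 8 markers. It ran from 2.65 to 3.09 in shLuc cells with empty vector and 8.45 to 8.91 with MyoD. In shSix4 cells it ran from 1.75 to 3.39 with empty vector and 6.95 to 7.73 with MyoD. Every shSix4 array with MyoD was thus below every shLuc array with MyoD in this sum. In such a sum the brightest markers weigh most, so it does not stand for all 8 alike. Myog had a mean level of 7.93 in shLuc and 6.78 in shSix4 cells with MyoD, and Acta1 of 2.66 and 2.12 with empty vector. Myod1 itself read lower in the shSix4 line with MyoD, at -2.17, -0.86 and -0.23 against 0.071, -0.23 and 1.23 in the shLuc line, with groups that barely fail to overlap. That difference was -1.45 ± 0.81 and did not pass (limma adjusted p = 0.837, and 0.152 with the block). On replicates 2 and 3 of the shSix4 line with MyoD, 9 and 6 Myod1 spots were marked as outliers. As 10 marked spots leave no value, these levels rest on few spots. Fibroblast markers summed to between 9.77 and 10.74 on the 12 arrays. Sox8 is also known from glia, and 3 of 4 glial markers were on the array. They summed to 3.21 to 4.60 and 3.30 to 3.76 in the empty-vector groups of shLuc and shSix4 cells, and to 1.27 to 2.47 and 1.14 to 3.33 in their MyoD groups. S100b was above background in all groups. The part of these marker levels and of Myod1 in the differences of the 8 genes was not tested.

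The wider pathway was read from 4 lists. Of 22 Hippo kinases and upstream regulators 18 were tested, and with MyoD in shLuc cells 0 were called higher and 1 lower, with a list median of -0.25 beside -0.14 over all genes. That gene was Amot, an angiomotin that binds YAP, which fell by 0.62 ± 0.16 (adjusted p = 0.0463). The call is fragile: no gene of the list was called in 19 of 24 alternatives, including 11 of the 12 that leave out 1 array. Among all genes 1.56% were called lower. With the block 3 of the 18 were called lower, near the 15.7% of all genes called lower there. The kinase genes Lats1 and Lats2 read -0.35 ± 0.37 and -0.35 ± 0.23 and did not pass. In shSix4 cells 0 of 18 were called, where 2.89% of all genes were (list median -0.17 beside -0.058). Taok3, a kinase upstream of the Hippo kinases, came closest there at -0.55 ± 0.27 (adjusted p = 0.570), and it was called lower with the block (adjusted p = 0.0389).

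Of 22 YAP and TAZ target genes 21 were tested, and 3 of them (Amotl2, Lats2 and Ptpn14) also stand in the Hippo list. With MyoD in shLuc cells 2 were called higher and 1 lower, with a median of -0.14 beside -0.14 over all genes. Igfbp3, which binds insulin-like growth factors, rose by 3.80 ± 0.39 (adjusted p = 9.09e-05), Ankrd1, a titin-binding ankyrin repeat protein of muscle, rose by 4.16 ± 0.94 (adjusted p = 0.0230), and Asap1, an Arf GTPase-activating protein, fell by 0.70 ± 0.16 (adjusted p = 0.0277). The targets most used as readouts, Ccn2 and Ccn1, read 0.059 ± 0.38 and 0.35 ± 0.55 and did not pass. Among all genes 4.72% were called higher and 1.56% lower. The block gave 3 higher and 5 lower of the 21, where it called 1217 of all 12300 genes higher and 1936 lower. Leaving out 1 array gave between 1 and 4 genes, the lowest count without shLuc replicate 3 with empty vector or shLuc replicate 1 with MyoD.

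In shSix4 cells 1 of the 21 targets was called, where 2.89% of all genes were. It was Igfbp3, at 2.11 ± 0.39 (adjusted p = 0.0108), with a list median of -0.068 beside -0.058. Ankrd1 read 3.96 ± 0.94 and missed the threshold (adjusted p = 0.0506), and it passed with the block (3.28e-05). Without shSix4 replicate 3 with MyoD no target was called, and without shSix4 replicate 1 with empty vector or shSix4 replicate 2 with MyoD 2 were. Between the hairpins 0 of 21 targets were called with either vector, where 0.0569% of all genes were with empty vector and 0.228% with MyoD. The nearest were Igfbp3 with empty vector, 2.28 ± 0.39 higher in the shSix4 line (adjusted p = 0.117, and 0.00840 with the block), and Dock5, a guanine nucleotide exchange factor, 1.06 ± 0.27 higher with MyoD (adjusted p = 0.161, and 0.0209 with the block).

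**Figure D5:**
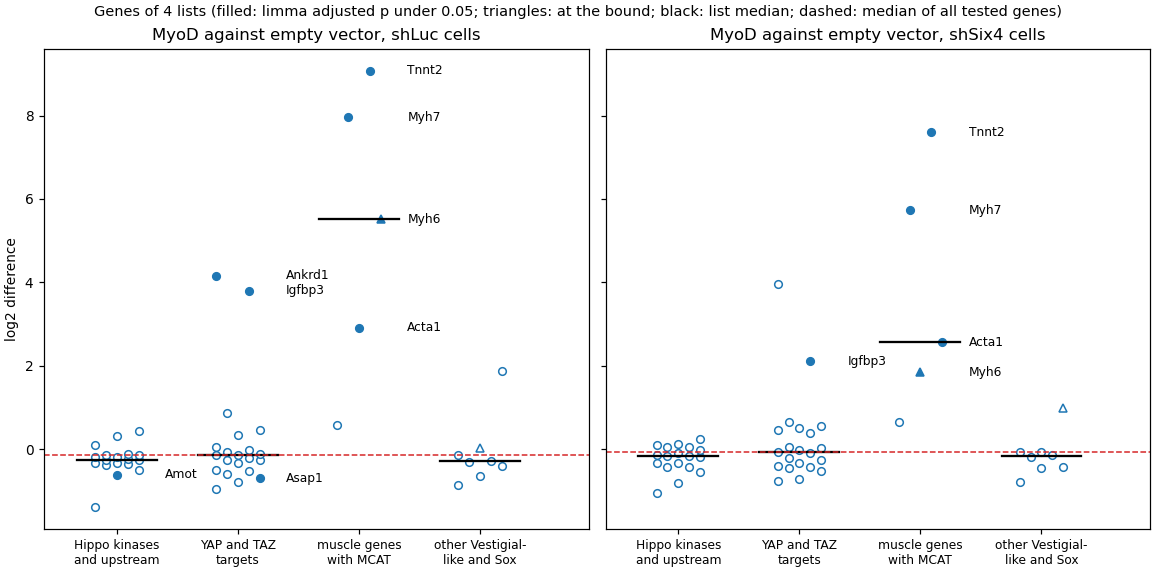
Log2 difference between MyoD and empty vector (vertical axis) of each tested gene of the 4 lists, in shLuc (left) and shSix4 cells (right). Filled points have a limma adjusted p under 0.05 and are named, black lines are list medians and the dashed line is the median of all tested genes. Triangles are genes at background in 1 of the groups, drawn at their bound (Myh6 and Sox2 on the left, Myh6 and Sox6 on the right), and the list medians use these. In both panels 4 of 5 muscle genes with an MCAT element are filled, and most genes of the other lists lie near the dashed line. Of all tested genes 6.28% passed the same threshold in shLuc and 2.89% in shSix4 cells.

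Of 5 muscle genes whose promoters are known for an MCAT element, 4 rose with MyoD in each line. Among all genes 4.72% were called higher in shLuc and 2.79% in shSix4 cells. Myh6 was at background in both empty-vector groups, and with it at its bound the list median was 5.51 in shLuc and 2.56 in shSix4 cells. In shLuc cells cardiac troponin T (Tnnt2) rose by 9.08 ± 0.51 and skeletal actin (Acta1, also counted among the muscle markers) by 2.91 ± 0.48. The slow and cardiac myosin gene Myh7 rose by 7.96 ± 0.59. Myh6, a cardiac myosin heavy chain, was at least 45.6-fold higher in shLuc and at least 3.6-fold higher in shSix4 cells, where 2 of 3 MyoD arrays were above background. Smooth muscle actin (Acta2) read 0.57 ± 0.61 and did not pass. In shSix4 cells Tnnt2 rose by 7.60 ± 0.51, Myh7 by 5.73 ± 0.59 and Acta1 by 2.56 ± 0.48 (adjusted p = 0.0112). The Acta1 call there was lost without shSix4 replicate 3 with empty vector (0.0576) and without shSix4 replicate 1 or 3 with MyoD (0.0543 and 0.0519).

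With MyoD, 1 of these 5 genes was called between the hairpins, where 0.228% of all genes were. The list median was -1.55 beside 0.029 over all genes. Myh6 was lower in shSix4 cells, where 2 of 3 arrays measured it, with a log2 difference of -3.09 ± 0.50 (adjusted p = 0.0365), a call that was lost in 11 of 12 fits that left out 1 array. Myh7 read -2.95 ± 0.59 (adjusted p = 0.0867) and Tnnt2 -1.55 ± 0.51 (adjusted p = 0.336). With the block 3 of 5 were called lower, where 318 of all 12300 genes were. With empty vector 0 of 5 were called, and the interaction called none of the 5 (lowest adjusted p = 0.566, for Myh6, whose responses have no measured size).

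Of 13 other Vestigial-like and Sox genes 12 had a probe and 8 were tested, all of them Sox genes, and none was called in any of the 5 comparisons as fitted to all 12 arrays without the block. Sox6, a SoxD factor known from muscle fibre types, was well above background on 1 of 3 empty-vector arrays of the shLuc line, on none of the shSix4 line and on all 6 with MyoD. It read at least 1.97-fold higher with MyoD in shSix4 cells (adjusted p = 0.282) and 1.86 ± 0.89 higher on the log2 scale in shLuc cells (adjusted p = 0.288). Without shLuc replicate 2 with empty vector it was called in both lines (adjusted p = 0.0218 in shSix4 and 0.00842 in shLuc cells), as it was in shSix4 cells with only the groups compared (0.00943). Sox9, the SoxE relative of Sox8 that drives cartilage, read -0.87 ± 0.42 in shLuc cells (adjusted p = 0.293) and was called lower with the block (adjusted p = 0.0282). It read -0.79 ± 0.42 in shSix4 cells. The list medians were -0.29 and -0.17, with Sox2 and Sox6 at their bounds where a group was at background (-0.36 in shLuc cells as measured), beside -0.14 and -0.058 over all genes.

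For each of the 3 genes called in shLuc cells, the 3 genes with the most similar levels were named by Pearson correlation over the 12 arrays, which reflects in large part the shared contrast of 6 arrays with MyoD and 6 without. Nearest to Tead4 were Shisa2 (r = 0.982), Kremen2 (0.978) and Myh2 (0.976). Nearest to Vgll2 were Klhl41 (0.994), Hjv (0.991) and Igfbp1 (0.991), and nearest to Sox8 were Slco2b1 (0.984), Myh8 (0.977) and Rragd (0.971). Over r = 0.9 lay 229 genes for Tead4, 352 for Vgll2 and 275 for Sox8. Of these 9 genes, all but Rragd were well above background on no array with empty vector, as Vgll2 was.

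With MyoD in shLuc cells the named genes were higher by bounds that span a wide range. Myh8, the perinatal myosin heavy chain, was at least 558-fold higher, and Myh2, a fast myosin heavy chain, at least 26.3-fold. Hjv (hemojuvelin) was at least 185-fold higher and Klhl41, a sarcomeric Kelch protein, at least 81.6-fold. Igfbp1 was at least 25.6-fold higher, Shisa2 at least 22.6-fold, Slco2b1 at least 15.6-fold and Kremen2 at least 5.81-fold. Rragd, a Rag GTPase, rose by 4.84 ± 0.42 (adjusted p = 2.43e-05). In shSix4 cells the bounds were lower for each of these 8 genes, from at least 1.77-fold for Kremen2 to at least 97.7-fold for Myh8, and a lower bound does not show a smaller change.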

How the data were processed

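Total RNA of the 12 samples was labelled with Cy3 and read on 1 array each. The deposited scanner files hold each spot as Cy3 intensity on a linear scale, background-corrected and detrended by Agilent Feature Extraction (version 11.5.1.1 per the file headers, but 10.5.1.1 in the submitters' processing notes). A table of normalized log2 values deposited by the authors was used only as an alternative (3867 probes matched, 2696 genes). Its name refers to quantile normalization, and the labels and headers used here do not state the method.

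Of 45018 spots per array 43379 were non-control, and none was saturated. Controls and outlier-marked spots (87 to 322 per array) were left out, which gave missing values in 156 genes. Log2 of the processed signal minus each array's 75th percentile was averaged per probe. Between 22318 and 27448 of 41174 probes per array were well above background, and the number of arrays limits the precision. The RefSeq table (GRCm38.p6) named 24844 probes. Probes were kept where a group had them well above background on each of its 3 arrays (24000), and the brightest named probe stood for a gene (12300 genes). Limma 3.58.1 in R 4.3.3 fitted 4 group means to the 12 arrays (8 residual and 2.85 prior degrees of freedom), with 5 comparisons, Benjamini-Hochberg adjustment over 12300 genes and a threshold of 0.05. Only the limma step was tested on simulated data, which had independent noise and no slide effect, unlike these arrays.

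Samples were grouped by title; the description field names another cell line and was not used. Deviations from group means correlated at 0.278 to 0.819 in the 18 pairs of arrays with the same replicate number (median 0.646) and at -0.733 to 0.498 in the 36 pairs with different numbers (median -0.545), over 12144 genes. The number, which is also the slide, therefore pairs the samples, and the blocked value is printed beside a result where it changes the call.

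The members, lists and tests were chosen with earlier results of these data known. Named genes were all members; from each list up to 4 genes with the lowest adjusted p past the threshold, or the gene with the lowest p where none passed; and the 3 genes closest by Pearson r to each called member. Lats1, Lats2, Ccn1, Ccn2, Acta2, Sox9, Ankrd1 in shSix4 cells, and Myh7 and Tnnt2 between the hairpins are named beyond that rule, with their values seen. The alternatives were quantile normalization, normexp background correction with an offset of 50, other filters, other probe rules, single probes, kept outlier spots, only the compared groups, the replicate block, the authors' table and leaving out each array. Normexp was run on the median foreground signal, as the files used here hold no mean signal. Alternatives chosen after seeing the data were the percentile over probes, leaving out slide 1, and normexp without 22 spots on 3 arrays that lie more than 20 units below their local background.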

Additional observations from a re-analysis of the deposited data

Results flagged for a closer look

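Tead4 read in opposite directions between the hairpins with the 2 vectors, without passing the test. On all 3 slides it read higher in shSix4 than in shLuc cells with empty vector (mean log2 difference 0.41) and on all 3 slides lower with MyoD (mean -0.56). Neither difference passed over all genes, and the test of the difference between them gave -0.97 (limma adjusted p = 1.00). Within slides 1, 2 and 3 it was -1.69, -0.53 and -0.71. The flag came from a rule that asks for 1 direction on all 3 slides in 1 comparison and the opposite in its pair. The slide directions are therefore no separate support, and how many of all genes meet the rule was not counted.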

How the results depend on the processing

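Of 119 counts of called members over the alternatives, 114 stayed within 1.5 times the count reported, as did those from each fit without 1 array. The exceptions were normexp on all spots (0 members called with MyoD in shLuc and 0 in shSix4 cells), probes well above background on all arrays (1 and 0, with 6 members tested, since Vgll2 and Sox8 fail that filter) and only the groups compared (1 in shSix4 cells). Normexp on all spots called 86 and 49 of 12300 genes, beside 772 and 356 as reported, and without the 22 low spots 570 and 246. With the replicate block 3153 and 1021 genes were called with MyoD and 79 and 533 between the hairpins, and the share called higher moved from 75.1% to 38.6% in shLuc and from 96.3% to 68.7% in shSix4 cells. Leaving out slide 1 gave 280 and 271 genes between the hairpins, beside 7 and 28. The stricter filter gave 457 and 154 genes with MyoD, and only the groups compared gave 227 in shSix4 cells. Fits without 1 array gave 490 to 876 and 266 to 367. Between the hairpins, with empty vector and with MyoD, the counts were 1 to 9 and 1 to 45 without 1 array, 0 and 0 with only the groups compared or normexp on all spots, 0 and 43 without the low spots, 2 and 2 with no filter, 4 and 6 with the stricter filter, 4 and 42 with quantile normalization and 8 and 51 with the median of a gene's probes. The block changed no other call of a member than those printed beside the results.

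Six4 with MyoD passed with the block (-1.17). Myod1 in shLuc cells did not pass with normexp on all spots (2.07) or with no filter (4.03, adjusted p = 0.0542), and ran from 2.93 to 5.13 without 1 array. That call was lost without shLuc replicate 1 with empty vector (2.93), any of the shLuc replicates 1, 2 and 3 that received MyoD (4.17, 4.32 and 3.59), or replicate 2 of shSix4 cells that did (4.03).

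Member differences kept direction and call in 958 of 1050 values. Those that changed sign were all short of the threshold, as reported and as alternatives, and the cause was not tested. Values of Vgll2 with empty vector, or of Vgll2 and Sox8 in the interaction, rest on arrays at background. With normexp on all spots they were Tead2 (0.028) and Wwtr1 (0.092) between the hairpins with MyoD, Tead4 (-0.13), Vgll2 (-0.69), Wwtr1 (0.20) and Sox8 (-0.46) between the hairpins with empty vector, Vgll4 with MyoD in shSix4 cells (-0.021), and the interaction of Yap1 (0.037) and Wwtr1 (-0.10). Without the low spots they were Tead3 (0.11) and Vgll4 (-0.063) between the hairpins with MyoD, Vgll2 (-0.29), Yap1 (-0.00013) and Sox8 (-0.092) with empty vector, Vgll4 with MyoD in shSix4 cells (-0.028), and the interaction of Vgll2 (0.27) and Yap1 (0.073). Without slide 1 they were Tead2 (-0.021) and Vgll4 (-0.21) with MyoD in shSix4 cells, Vgll2 (-0.094), Vgll4 (0.0099) and Sox8 (-0.20) between the hairpins with empty vector, and the interaction of Wwtr1 (-0.011). The median of a gene's probes turned Wwtr1 between the hairpins with empty vector (0.055) and its interaction (-0.11), quantile normalization turned the latter too (-0.0013), and the authors' deposited table turned Tead2 with MyoD in shLuc cells (0.070).

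Without 1 array, differences that changed sign ran over these ranges. With MyoD in shLuc cells Tead2 ran from -0.28 to 0.17, Yap1 from -0.43 to 0.041 and Wwtr1 from -0.19 to 0.51. In shSix4 cells Tead2 ran from -0.17 to 0.37, Vgll4 from -0.28 to 0.28 and Wwtr1 from -0.12 to 0.51. Between the hairpins with empty vector Tead3 ran from -0.50 to 0.080, Vgll2 from -0.088 to 0.43, Vgll4 from -0.41 to 0.15, Yap1 from -0.033 to 0.38, Wwtr1 from -0.48 to 0.21 and Sox8 from -0.095 to 1.73. With MyoD Tead3 ran from -0.35 to 0.20, Vgll4 from -0.14 to 0.17, Yap1 from -0.094 to 0.38 and Wwtr1 from -0.43 to 0.23. The interaction ran from -0.081 to 0.46 for Tead2, -0.16 to 0.42 for Tead3, -0.098 to 0.46 for Vgll4, -0.25 to 0.23 for Yap1 and -0.29 to 0.42 for Wwtr1.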
